A study of Mus musculus with 62 samples.

Results

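Progression of cachexia was examined in the diaphragm of mice that carried a cachectic melanoma, by comparing 7 mice at 8 weeks after implantation with 5 mice at 6 weeks. These 12 libraries were chosen by their labels for tumor and time, from 62 libraries of 12 conditions. All mice of the series were labelled female and 2 months old, and each library came from the diaphragm of 1 mouse. The cachectic tumor is a patient-derived melanoma xenograft that causes muscle wasting, the non-cachectic tumor is a melanoma xenograft that does not, and control mice received a mock injection. Each kind of tumor is 1 xenograft line, so that differences between tumors are also differences between 2 lines. For the comparisons with time alone, 5 control mice and 5 mice with the non-cachectic melanoma were used at each of 6 and 8 weeks. The strain is C57BL/6J in the sample labels and NCI Ath/nude, an athymic mouse, in the study's methods. Of 10 T cell markers, 9 stayed under 1 TPM in every cachectic mouse at 6 weeks and 8 did so at 8 weeks. The 10 markers of skeletal muscle fibers summed to 67200 to 86949 TPM at 6 weeks and 40567 to 92028 TPM at 8 weeks.

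The diaphragm is the main muscle of breathing, and its fibers are lost in mass in cancer cachexia. In wasting muscle, ubiquitin ligases such as Trim63 (MuRF1) and Fbxo32 (atrogin-1) mark proteins for the proteasome, glucocorticoids and inflammatory cytokines such as IL-6 induce atrophy and acute phase genes, and matrix genes of fibroblasts change as well. Most proteins of mitochondria are encoded in the nucleus, made on cytosolic ribosomes and imported, and the comparison of 8 with 6 weeks asks which of these programs move as wasting advances.

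Expression is given in TPM, a unit that corrects reads for transcript length and scales each library to the same total. Differences are on the log2(TPM + 1) scale, 8 minus 6 weeks, and are smaller than the true change where values are low. The read depth is unknown, and counting error could not be given. The 13578 genes that reached 1 TPM in 5 or more of the 62 libraries were tested with limma, and a gene was called changed at an adjusted p under 0.05. Nothing in the labels ties the mice to separate litters or days. The p-values rest on 1 spread per gene, pooled over the mice of all 12 conditions and not only those compared. That pool keeps 2-week libraries with few genes above 0: cachectic replicates 3 and 4 with 15069 and 16389, and non-cachectic replicate 5 with 15493. In bulk tissue, fewer cells of a type and less RNA per cell cannot be told apart.

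One library stood apart, the 8-week cachectic replicate 3. In it 15263 genes were above 0, against 17909 to 18634 in the other 11 cachectic libraries. Mitochondrially encoded genes held 57.1% of its TPM, against 32.5% to 44.9%. It was the lowest of the 12 libraries in 10241 of the 13578 genes, and its erythroid markers summed to 41282 TPM, the highest of the 12. Several cachexia genes were near the control level in it: Serpina3n was at 18.4 TPM and Mt2 at 20.9 TPM, with control medians at 8 weeks of 7.52 and 14.0 TPM, whereas Hp, at 128 TPM, was far above the control median of 8.75 TPM. The counts, the main lists and most differences are therefore given with 12 mice and with 11, without this library, and every call of a single gene below is from the 11. Liver markers also differed between the libraries: the mean log2 level of 11 liver genes was 7.69 in the 6-week replicate 5, 6.33 in the 8-week replicate 2 and 4.11 in the 8-week replicate 1, and from 0.60 to 3.02 in the other 9.

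With all 12 mice, limma called 0 of 13578 genes (0%) as higher and 0 (0%) as lower at 8 than at 6 weeks. At an unadjusted p under 0.05 there were 1974 genes (14.5%), 227 of them higher (1.67%) and 1747 lower (12.9%). Dunn's test on ranks gave 0 genes (0%) after adjustment and 1155 (8.51%) before it. The median difference over all genes was -0.22, and 18% of genes had a positive difference. The 2 groups did not overlap in 64 genes (0.471%), with the 8-week mice above in 16 (0.118%) and below in 48 (0.354%). Without replicate 3 the median difference was -0.06, 35% of genes had a positive difference, and limma called 20 genes (0.147%), 19 as higher (0.14%) and 1 as lower (0.00736%). At an unadjusted p under 0.05 there were then 763 genes (5.62%), 395 higher (2.91%) and 368 lower (2.71%), and Dunn's test again gave 0 genes (0%) after adjustment and 631 (4.65%) before it. The calls ended, with 0 higher and 0 lower, when only the compared groups were fitted or mitochondrially encoded genes were left out, and were 1 higher and 0 lower with median-ratio scaling or quantile normalization. The groups did not overlap in 95 genes (0.7%), with the 8-week mice above in 43 (0.317%) and below in 52 (0.383%).

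The genes that rose without replicate 3 are given by the role of their product, starting with proteins of mitochondria, a grouping made after the calls were seen. Romo1, a small protein of the inner mitochondrial membrane, was at 80.9, 62.7, 61.5, 78.0 and 46.7 TPM in the 5 mice at 6 weeks, and at 98.2 TPM in the lowest, 100.4 in the median and 119.6 in the highest of the 7 mice at 8 weeks. All mice at 8 weeks, replicate 3 included, lay above all mice at 6 weeks. The difference was 0.71 ± 0.16 (SE, 11 mice; limma adjusted p = 0.0335). With 12 mice it was 0.69 (limma adjusted p = 0.104).

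Mrpl52, a protein of the large subunit of the mitochondrial ribosome, was at 45.5, 33.5, 31.6, 36.2 and 26.2 TPM at 6 weeks. At 8 weeks it ranged from 36.8 TPM, in replicate 3, over a median of 53.9 to 75.8 TPM. Only replicate 3 lay within the 6-week range, and without it Mrpl52 rose by 0.71 ± 0.15 (SE, 11 mice; limma adjusted p = 0.0256), against a difference of 0.62 with 12 mice (limma adjusted p = 0.168). The open reading frame 1810043H04Rik, listed by RefSeq as Ndufaf8, an assembly factor of respiratory complex I, was at 24.9, 20.6, 18.6, 21.3 and 16 TPM at 6 weeks and from 26.3 to 37.4 TPM, with a median of 32.6, at 8 weeks. The 2 groups did not overlap with 12 mice, and the difference was 0.69 ± 0.14 without replicate 3 (SE; limma adjusted p = 0.0256) and 0.65 with it (limma adjusted p = 0.101). In control mice its median was 22.9 TPM at 6 weeks and 26.2 TPM at 8 weeks.

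Other genes of mitochondrial proteins were called with smaller differences. Pam16, of the motor that pulls proteins into the matrix, rose by 0.42. Timm10b, a chaperone of import between the membranes, rose by 0.40, and Hint2, a mitochondrial hydrolase, by 0.37. Bola1, which takes part in iron-sulfur cluster work, rose by 0.75, from a median of 10.6 TPM to 18.0 TPM. These 4 differences are without replicate 3, and with 12 mice they were 0.31, 0.33, 0.29 and 0.74 in the same order. In Bola1 the 8-week replicate 4, at 14.5 TPM, lay within the 6-week range. Cox8a, a subunit of cytochrome c oxidase, was above the 6-week range in all 7 mice at 8 weeks, with 167.8 TPM in the lowest of them and 166.4 TPM in the highest 6-week mouse, but did not pass in either fit, with differences of 0.66 and 0.64 (limma adjusted p = 0.063 with 11 and 0.168 with 12 mice).

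Of histone genes, Hist1h4h had the largest difference among those that rose. It was at 36.7, 27.4, 25.8, 42.7 and 18.9 TPM at 6 weeks, and at 41.8 TPM in the lowest, 67.8 in the median and 101.4 in the highest mouse at 8 weeks. The lowest 8-week mouse lay within the 6-week range, and the difference was 1.24 ± 0.25 (SE, 11 mice; limma adjusted p = 0.0256), and 1.15 with 12 mice (limma adjusted p = 0.104). Hist1h4i rose by 1.03, from 12.5 to 20.3 TPM at 6 weeks to between 20.6 and 79.6 TPM without replicate 3. Both encode histone H4, and their transcripts are 95.6% identical over 318 bases, so that reads could be split between them. H2afj, a variant of histone H2A, rose by 0.68. With 12 mice the differences of Hist1h4i and H2afj were 0.89 and 0.61.

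The remaining genes that rose have various roles. Atp8a2, a flippase that moves phospholipids across membranes, was at 1.52, 1.31, 1.89, 1.23 and 1.02 TPM at 6 weeks, and between 2.07 and 2.50 TPM in the 6 mice other than replicate 3, which was at 1.01 TPM. Its control levels were lower, with medians of 0.60 TPM at 6 weeks and 0.74 TPM at 8 weeks. Serpina3e-ps, a pseudogene of the serpin A3 protease inhibitors, rose by 1.07 from a median of 2.27 TPM. With 12 mice the differences of Atp8a2 and Serpina3e-ps were 0.35 and 0.76, against 0.44 and 1.07. Edf1, a coactivator of transcription, rose by 0.38. Yjefn3 rose by 0.96, Toporsos (Smim27 in RefSeq) by 0.69, 2810428I15Rik (Rex1bd) by 0.54, and Ppp1r35, a protein of the centrosome, by 0.60. The open reading frames 2310039H08Rik and Gm5617 rose by 0.74 and 0.72.

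Over the 19 genes, the difference without replicate 3 ran from 0.37 to 1.24, and with 12 mice from 0.29 to 1.15. Replicate 3 was the lowest of the 7 mice in 16 of them, and the lowest of all 12 in 10241 of the 13578 genes tested. The 8-week mice lay above the 6-week mice without overlap in 11 of the 19 genes without replicate 3, and in 2 of them with it. Over all genes the shares were 0.317% and 0.118%. The 19 were called from these same mice as higher, so that their lack of overlap is no added support. In control mice 18 of the 19 genes also had a positive difference, as had 68.9% of all genes, and in mice with the non-cachectic melanoma 17 had one, as had 46.3% of all genes. By limma 0 of the 19 passed in either. The number of calls moved with single mice: with 1 further mouse left out, from 0 to 40 genes were called as higher. The count was 0 without the 6-week replicates 2 or 5 or the 8-week replicates 4 or 6, from 1 to 3 without the 6-week replicate 3 or the 8-week replicates 1 or 2, and 40 without the 6-week replicate 1.

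**Figure D1:**
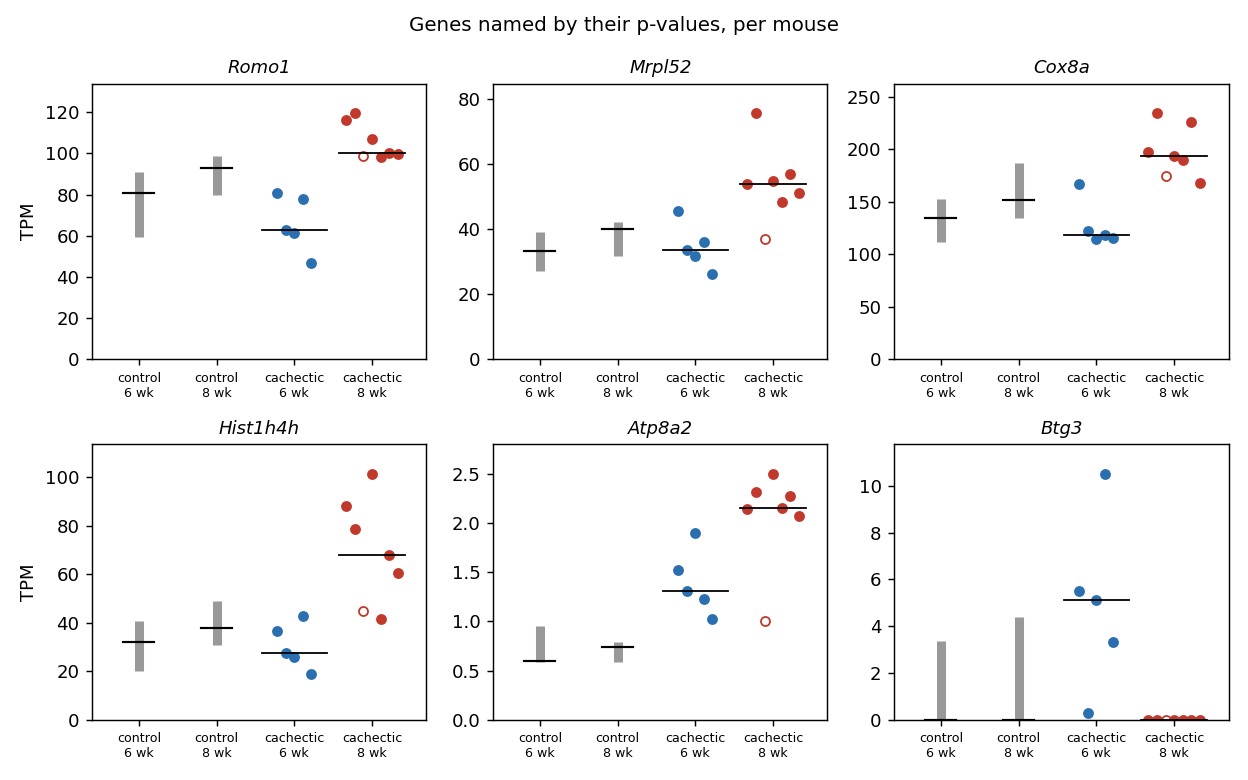
TPM per mouse of 6 named genes (y axes from 0), for cachectic mice at 6 weeks (blue) and 8 weeks (red, with replicate 3 as an open circle), with lines at the medians, and the range (grey bar) and median (black line) of 5 control mice at each time. Romo1 lies above the 6-week range in all 7 mice at 8 weeks, and Btg3 is at 0 in all 7.

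Btg3, which restrains cell proliferation, was the gene called as lower. It was at 5.51, 0.30, 5.11, 10.5 and 3.34 TPM at 6 weeks and was listed at 0 in all 7 mice at 8 weeks (difference -2.27 with 12 and with 11 mice; limma adjusted p = 0.101 and 0.0295). It was also listed at 0 in the median control mouse at both times. It shares sequence with a processed pseudogene, Gm7334, whose 756 bases equal the coding sequence of Btg3. Reads within an exon of that sequence fit both, while the rest of the Btg3 transcript of 1414 bases and its exon junctions, in the genome, are its own. How such reads were placed is not given in the sources used here. The first 90 coding bases of Btg3 (GRCm38 chr16:78373328-78373417, minus strand, within 1 exon), with the start codon in capitals, are shown because they stand letter for letter at the start of Gm7334.
Btg3: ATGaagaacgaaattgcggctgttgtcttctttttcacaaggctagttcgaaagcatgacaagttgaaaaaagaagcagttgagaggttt
Gm7334 was at 6.72, 11.8, 6.58, 0 and 3.97 TPM at 6 weeks and from 5.82 to 14.1 TPM at 8 weeks. The 6-week mouse with the most Btg3, replicate 4, was the one with Gm7334 at 0. Whether reads moved between the 2 entries was not tested, so that the lower Btg3 value cannot be read as less transcript.

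Other named genes had copies of this kind. Gm5601, 99.8% identical over 1438 bases to the phosphatase gene Ppp1cc, was at 12.2 to 47.2 TPM at 6 weeks and at 0 to 10.4 TPM at 8 weeks, without overlap (limma adjusted p = 0.202 with 11 mice), while Ppp1cc was at 53.9 to 77.7 TPM at 6 weeks and at 60.9 to 83.8 TPM at 8 weeks, apart from 19.7 TPM in replicate 3. Sarnp, an RNA-binding protein of mRNA export, was at 52.0 to 59.9 TPM at 6 weeks and at 17.9 to 101.4 TPM at 8 weeks. Its pseudogene Gm6563, 99.1% identical over 433 bases, was at 0 in all 6-week mice and at 17.7 to 46.5 TPM in 4 of the mice at 8 weeks, the same 4 in which Sarnp was lowest.

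By limma, 0 other genes were called as lower, and those with small p-values or without overlap are given as values. Tspan12, a membrane protein of Norrin signaling, was at 17.0, 23.2, 20.5, 19.7 and 22.8 TPM at 6 weeks and at 11.7 TPM in the lowest, 15.7 in the median and 16.6 in the highest mouse at 8 weeks, without overlap with 12 mice (difference -0.47, and -0.49 without replicate 3). Pdhb, the beta subunit of pyruvate dehydrogenase, had the smallest p of these with 11 mice: it was at 342 to 436 TPM at 6 weeks and at 289 to 352 TPM at 8 weeks, apart from 575 TPM in replicate 3 (difference -0.28; limma adjusted p = 0.0647). Lrrc39, a protein of the M-band, differed by -0.33 (limma adjusted p = 0.0798). With 12 mice the differences of Pdhb and Lrrc39 were -0.15 and -0.27. Hspa13, a chaperone of the Hsp70 family, was at 4.64 to 8.88 TPM at 6 weeks and at 3.28 to 6.42 TPM at 8 weeks, with overlap, and Gpm6b, Sema3c, a secreted guidance protein, and Klhl4 overlapped as well. Fndc3c1 and 2610008E11Rik did not overlap, with differences of -0.57 and -0.32 without replicate 3 and of -0.64 and -0.49 with it.

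Transcript length moved with these differences. The 19 genes that rose had a median transcript length of 910 bases, against 3228 over the genes tested, and 14 of them were under 1100 bases, as were 7.99% of all genes. Over 10 bins of length, the median difference without replicate 3 fell from 0.07 in the shortest genes to -0.13 in the longest, and with 12 mice from 0.09 to -0.38. In control mice it went from 0.05 to 0.02, and in mice with the non-cachectic melanoma from -0.00449 to 0.00853. Within a library, the slope of log2 level on log2 length, relative to the mean of all libraries, was -0.56 in replicate 3, -0.12 in the 8-week replicate 2 and -0.07 in the 6-week replicate 5, and from -0.00487 to 0.11 in the other 9 cachectic libraries. With each library adjusted for length and GC content, limma called 0 genes (0%) with 12 or with 11 mice, and 1322 (9.81%) and 970 genes (7.2%) had an unadjusted p under 0.05. Dunn's test was not run on the adjusted values. Under this adjustment the difference was 0.59 for Romo1, 0.66 for Mrpl52 and 1.17 for Hist1h4h, each smaller than the value given above without replicate 3. What part length has in the differences of the called genes was not tested.

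**Figure D2:**
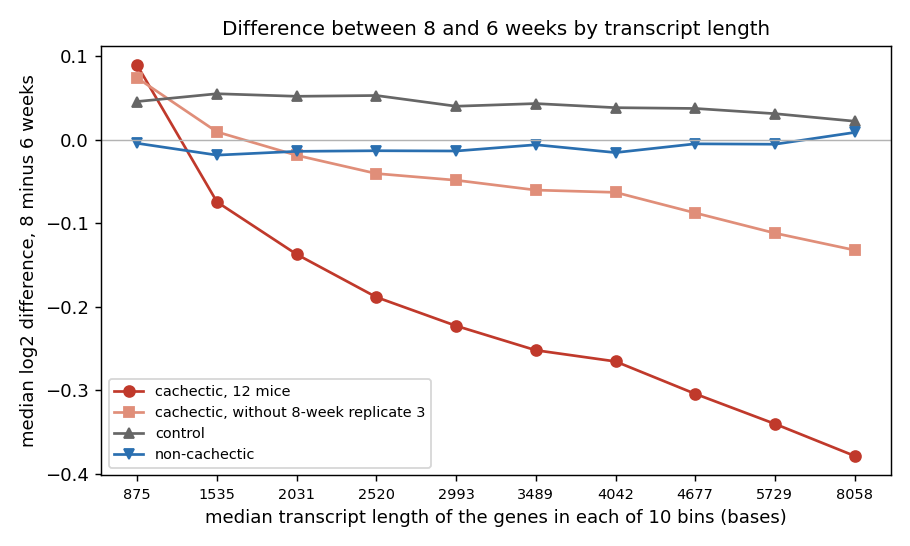
Median log2 difference of 8 minus 6 weeks (y axis) over 10 bins of genes by transcript length (x axis, median length in bases), for cachectic mice with and without the 8-week replicate 3, control mice and mice with the non-cachectic melanoma. The cachectic lines fall from 0.09 to -0.38 and from 0.07 to -0.13, and the other lines stay within 0.1 of 0.

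Next, 19 genes reported earlier as changed in cachectic diaphragm were followed from 6 to 8 weeks. They were picked from this study's own experiments, and are not independent evidence of a direction. Of them, 18 were tested, since Fibcd1 was at 0 in all 6-week mice and under 1 TPM in every mouse at 8 weeks. With 12 mice 8 of the 18 had a positive difference and 10 a negative one, with 11 mice 11 and 7, and limma called 0 in both fits.

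Serpina3n, Mt2 and Scgb3a1 were above control at 6 weeks already. As a list, the 26 acute phase genes and protease inhibitors had a median SD of 1.77 at 6 weeks and of 1.02 at 8 weeks without replicate 3 (1.57 with it). Without replicate 3, 6 of them had the larger SD at 8 weeks. The mean log2 level of the list was 6.15 in the 6-week replicate 5, the mouse with most liver RNA, and 2.37 to 3.03 in the other 4. At 8 weeks it was 6.04 in replicate 2, 4.40 in replicate 1 and at most 3.12 in the others. The part of single mice in these SDs was not tested. Serpina3n, a secreted protease inhibitor, was at 590, 216, 213, 263 and 216 TPM at 6 weeks, where the control median was 7.08 TPM. At 8 weeks it was at 660, 642, 18.4, 614, 322, 1062 and 354 TPM in replicates 1 to 7 (difference 1.03 without replicate 3, limma adjusted p = 0.917, and 0.34 with it). Mt2, a metallothionein that binds zinc, was at 1176 TPM in the 6-week replicate 1 and at 290 to 436 TPM in the other 4. At 8 weeks Mt2 was at 1750, 1530 and 1549 TPM in replicates 1, 2 and 6, at 275 to 622 TPM in replicates 4, 5 and 7, and at 20.9 TPM in replicate 3. The groups overlapped in both genes. Scgb3a1, a secretoglobin, was at 2.08 to 12.9 TPM at 6 weeks and at 5.82 to 18.3 TPM at 8 weeks apart from 2.24 TPM in replicate 3. Its difference of 0.95 had the smallest p of these genes without replicate 3 (limma adjusted p = 0.0813), and was 0.67 with 12 mice. Hp and Saa1, which the liver makes in quantity, were highest in the mice with most liver RNA, with Saa1 at 361 TPM in the 6-week replicate 5 and 422 TPM in the 8-week replicate 2, against 2.66 to 91.0 TPM in the other 10 mice. The part of that RNA in these levels was not tested.

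The genes that are low in cachectic muscle were lower still in some mice. Nmrk2, a kinase of NAD synthesis from nicotinamide riboside, was at 16.1, 34.5, 19.9, 17.2 and 20.0 TPM at 6 weeks. At 8 weeks it was at 1.36 and 1.89 TPM in replicates 1 and 6, at 9.37, 14.1, 14.5 and 11.5 TPM in replicates 2, 4, 5 and 7, and at 71.5 TPM in replicate 3, within the range of 66.7 to 158.9 TPM of control mice at 6 weeks. Without replicate 3 the groups did not overlap, and the difference was -1.50 ± 0.48 (SE; limma adjusted p = 0.433), and -1.04 with 12 mice. Ky, a protein of the Z-disc that muscle needs under load, was at 9.01 to 29.3 TPM at 6 weeks, and at 1.50 and 1.85 TPM in replicates 1 and 6, 4.06 and 4.52 TPM in replicates 2 and 3, and 16.1 to 23.7 TPM in the other 3 mice at 8 weeks. Nrep was at 12.1 to 30.2 TPM at 6 weeks, and at 4.15 and 5.47 TPM in the 8-week replicates 1 and 6. Mfap4, of elastic fibers, was at 2.38 and 1.78 TPM in these 2 mice, where the 6-week mice were at 5.47 to 14.0 TPM.

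The 8-week replicates 1 and 6 thus had the most extreme levels of many of these genes, and they were singled out after their values were seen. Over all genes they were not the pair that stood out most. Without replicate 3, replicates 1 and 2 were the 2 lowest in 4499 genes, and 1 and 6 in 1162. Replicates 5 and 6 were the 2 highest in 2288 genes, and 1 and 6 in 1923. Trim63 was at 1303 TPM in replicate 1 and 710 TPM in replicate 6, against 128 to 218 TPM in replicates 2, 4, 5 and 7, 29.4 TPM in replicate 3 and 152 to 477 TPM at 6 weeks. Fbxo32 was at 655 and 416 TPM in replicates 1 and 6, against 75.2 to 213 TPM in replicates 2, 4, 5 and 7, 16.8 TPM in replicate 3 and 117 to 279 TPM at 6 weeks. Neither passed limma's test, with differences of 0.41 and 0.26 without replicate 3 (limma adjusted p = 0.999 for both) and -0.08 and -0.25 with it. Among the 6 mice other than replicate 3, replicates 1 and 6 were the 2 highest in 18 of 28 glucocorticoid targets and in 8 of 20 atrophy ubiquitin ligases, against 14.2% of all genes. They were the 2 lowest in 17 of 31 collagen genes and 16 of 39 genes of matrix glycoproteins and proteoglycans, against 8.56% of all genes. Of 35 sarcomere and Z-disc genes they were the 2 highest in 7 and the 2 lowest in 7. Of 56 ribosomal protein genes these counts were 1 and 0, of 49 genes of oxidative phosphorylation 0 and 11, and of 10 mesothelium markers 0 and 0. The pair was picked on genes that some of these lists hold. These are Trim63 and Fbxo32 of the ligases, Nrep and Mfap4 of the matrix list and Ky of the Z-disc list. No other pair was counted on the lists, so that the counts describe these mice and are no added support. Klf15, a glucocorticoid target that favors amino acid breakdown, was at 164 and 124 TPM in replicates 1 and 6 and at 53.8 to 82.4 TPM in replicates 2, 4, 5 and 7. Col1a1 was at 5.18 and 7.11 TPM in them, against 18.4 to 38.1 TPM in the same 4 mice and 17.4 to 40.4 TPM at 6 weeks.

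**Figure D3:**
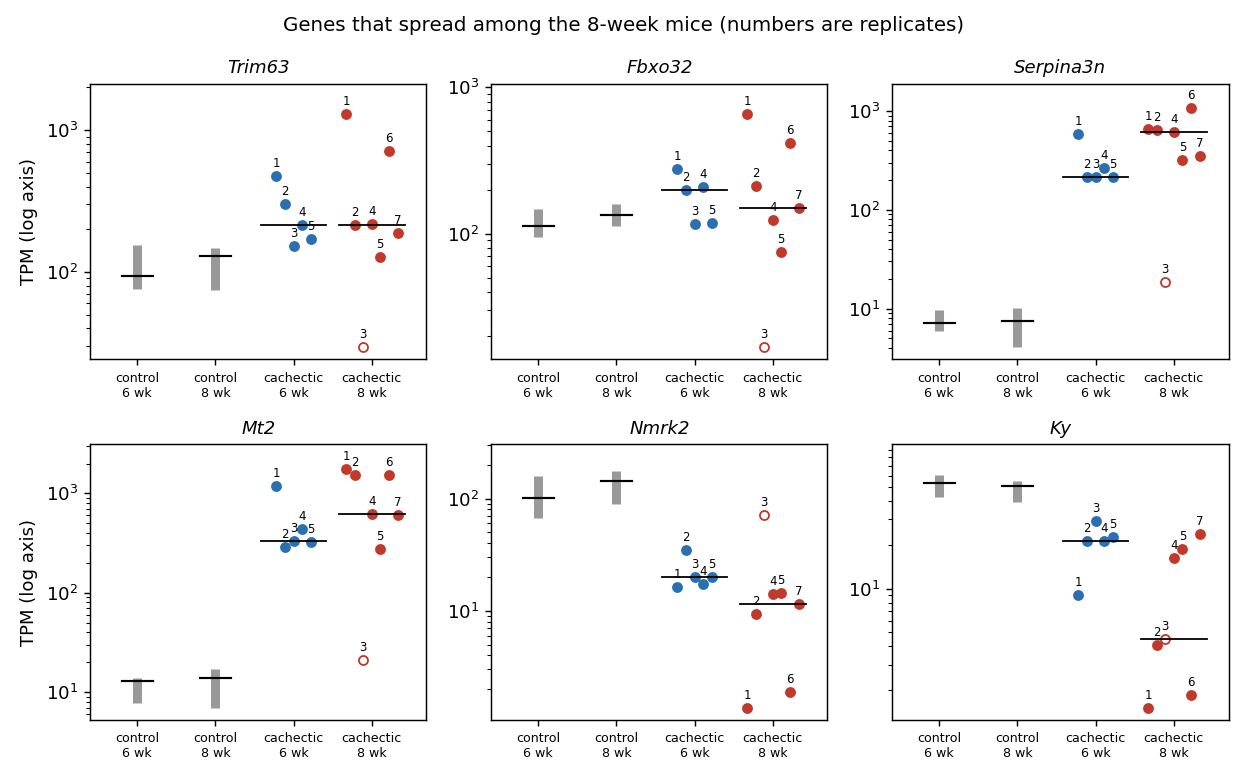
TPM per mouse (log axis) of 6 genes in cachectic mice at 6 weeks (blue) and 8 weeks (red), with replicate numbers at the points, replicate 3 at 8 weeks as an open circle, lines at the medians, and the range (grey bar) and median of 5 control mice at each time. The 8-week replicates 1 and 6 are highest for Trim63 and Fbxo32 and lowest for Nmrk2 and Ky.

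The promoters of 3 of these genes are given. Trim63 was higher and Nmrk2 lower in the 8-week replicates 1 and 6. Serpina3n was highest in the same mice, but replicates 2 and 4 were close to replicate 1 in it. The promoters run from 250 bases before to 50 after the start in RefSeq (GRCm38.p6). Capitals mark a match on either strand to ACANNNTGT, letters taken from the element bound by the glucocorticoid receptor.
Trim63 (chr4:134314870-134315169, plus strand): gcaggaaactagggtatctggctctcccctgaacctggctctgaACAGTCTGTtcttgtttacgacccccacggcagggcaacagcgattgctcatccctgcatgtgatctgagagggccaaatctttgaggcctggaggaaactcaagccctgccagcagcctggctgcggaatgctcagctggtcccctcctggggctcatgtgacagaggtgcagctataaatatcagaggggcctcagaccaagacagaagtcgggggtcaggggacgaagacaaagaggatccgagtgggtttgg
Serpina3n (chr12:104406458-104406757, plus strand): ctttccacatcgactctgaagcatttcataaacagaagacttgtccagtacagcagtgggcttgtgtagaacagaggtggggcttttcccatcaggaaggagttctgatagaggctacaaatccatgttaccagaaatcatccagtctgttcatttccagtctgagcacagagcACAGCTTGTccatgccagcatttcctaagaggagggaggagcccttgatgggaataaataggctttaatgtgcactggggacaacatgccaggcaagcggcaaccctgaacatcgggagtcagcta
Nmrk2 (chr10:81201988-81202287, minus strand): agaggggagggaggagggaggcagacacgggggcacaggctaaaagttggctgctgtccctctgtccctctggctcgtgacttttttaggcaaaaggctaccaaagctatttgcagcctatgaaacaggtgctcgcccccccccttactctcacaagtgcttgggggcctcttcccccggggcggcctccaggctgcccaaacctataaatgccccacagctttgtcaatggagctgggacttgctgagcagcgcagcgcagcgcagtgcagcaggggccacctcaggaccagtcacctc
This motif was found in Trim63 and Serpina3n. It was found in 0 of the promoters of Nmrk2, Ky and Mt2, although Mt2 was high in the 8-week replicates 1, 2 and 6. Of the 32851 promoters of the table, 6.85% held this motif. It was found in 0 of the 18 called genes that had a promoter there, of which 7 held TGACG, the core of the CRE, found in 20.8% of all promoters, 2 held the E-box CACGTG (7.15%), 1 held the D-box TTANNTAA (6%) and 0 held the STAT element TTCNNNGAA (8.3%) or the heat shock element GAANNTTC (7.86%).

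Gene lists were described by their counts and medians, beside the median of all genes of -0.22 with 12 and -0.06 with 11 mice. A positive difference was seen in 18% of all genes with 12 mice and in 35% with 11. By limma, 0 members of these lists were called, with 12 or with 11 mice. Their members at an unadjusted p under 0.05 can be read against the 2.91% of all genes that were higher and 2.71% that were lower without replicate 3. Of the muscle programs, the 20 atrophy ubiquitin ligases had a median of -0.37 with 12 and -0.03 with 11 mice, and 0 of them had an unadjusted p under 0.05 without replicate 3. The 33 proteasome subunits had medians of -0.02 and 0.0027, with 17 positive and 16 negative without replicate 3. The 28 glucocorticoid targets had a median of -0.18 with replicate 3 and of 0.26 without it, with 18 positive and 10 negative. The 35 sarcomere and Z-disc genes had medians of -0.26 and -0.04, and in these Ky alone had an unadjusted p under 0.05 without replicate 3. Of the myosin heavy chains, Myh4, of the fast 2B fibers, was at 608, 551, 825, 258 and 32.0 TPM at 6 weeks and from 26.9 over a median of 137.6 to 228 TPM at 8 weeks, a difference of -1.38 without replicate 3 (limma adjusted p = 0.947) and of -1.67 with it, where the groups overlapped through the low 6-week replicate 5. Scaling moved the sign of several of these medians: median-ratio scaling gave 0.03 for the sarcomere list with either set of mice, and -0.09 with 12 and 0.03 with 11 mice for the ligases.

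The cytosolic ribosomal protein genes shared a positive sign. All 56 of them had a positive difference without replicate 3, against 35% of all genes, with a median of 0.23, and 20 had an unadjusted p under 0.05. With 12 mice 55 were positive with a median of 0.21, whereas the median was 0.03 in control mice and 0.00671 in mice with the non-cachectic melanoma. Rplp2, of the ribosomal stalk, was at 276, 182, 177, 228 and 165 TPM at 6 weeks and at 96.8 TPM in replicate 3 and 232 to 360 TPM in the other 6 mice at 8 weeks (difference 0.45 without replicate 3, limma adjusted p = 0.273, and 0.23 with it). The list's median was positive under each scaling, between 0.18 and 0.51, and was 0.20 after adjustment for length and GC content with 11 mice. The number at an unadjusted p under 0.05 did depend on the scaling: with 11 mice it was 4 with median-ratio scaling, 11 with quantile normalization, 9 without mitochondrially encoded genes and 13 after that adjustment. Ribosomal protein transcripts are short. The mean of the list on the log2 scale was 8.03 to 8.52 at 6 weeks. At 8 weeks it was 8.93 in replicate 2, 8.58 in replicate 1 and 8.54 in replicate 6. In replicates 3, 4, 5 and 7 it was 8.23 to 8.46, within the 6-week range. Nuclear-encoded genes of oxidative phosphorylation, 49 in number, did not share a direction: their median was -0.02 without replicate 3, with 7 higher and 3 lower at an unadjusted p under 0.05. The 7 were the small subunits Ndufa1, Ndufa2, Ndufb5, Uqcrq, Cox5b, Cox6a2 and Cox8b, and the 3 were Ndufs1, Sdhd and Uqcrc2. With 12 mice the median was 0.02. The balance turned with the scaling, to 3 higher and 8 lower with quantile normalization or without mitochondrially encoded genes, and to 2 higher and 1 lower with median-ratio scaling, all with 11 mice.

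Matrix and surface lists were on the negative side. So were most genes, with 35% of all genes positive without replicate 3 and 18% with it. The 31 collagen genes had a median of -0.26 without replicate 3, with 25 negative, and of -0.49 with it, with all 31 negative. The 39 genes of matrix glycoproteins and proteoglycans had medians of -0.19 and -0.39, with 33 and 38 negative, and 6 of them had an unadjusted p under 0.05 without replicate 3: Lum, Aspn, Efemp1, Tnxb, Thbs2 and Nrep. Col3a1, a fibrillar collagen, was at 32.5, 62.1, 77.6, 43.0 and 41.0 TPM at 6 weeks and at 7.93 TPM in the lowest, 27.1 in the median and 82.1 in the highest mouse at 8 weeks. The highest was replicate 2 and the lowest were replicates 1 and 6. In control mice the collagen median was 0.40 and in mice with the non-cachectic melanoma -0.19. The 12 markers of fibroblasts and fibro-adipogenic progenitors, the cells that make matrix, had a median of -0.24 without replicate 3 and of -0.35 with it, each with 10 negative. Among them, Col1a1, Col3a1, Dcn and Fbn1 are also members of the collagen or matrix lists, so that the lists share values. The mean log2 level of these 12 markers was 5.19 and 5.57 in replicates 1 and 6 and 5.10 in replicate 3. It was 5.90 to 6.65 in replicates 2, 4, 5 and 7 and 5.83 to 6.55 at 6 weeks. The part of this level in the matrix values was not tested.

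All 10 markers of mesothelium, the cell layer that covers the diaphragm, had a negative difference, with a median of -0.80 with 12 and -0.59 with 11 mice. Most genes were negative as well, with 18% of all genes positive with 12 and 35% with 11 mice. At an unadjusted p under 0.05, 9 were lower with 12 mice, where 12.9% of all genes were. With 11 mice 3 were lower, namely Upk1b, Lrrn4 and Muc16, where 2.71% of all genes were. Lrrn4 was at 19.5, 21.4, 16.1, 11.4 and 7.07 TPM at 6 weeks and at 1.13 TPM in the lowest, 8.94 in the median and 13.3 in the highest mouse at 8 weeks, with overlap (difference -0.79, limma adjusted p = 0.872, without replicate 3, and -1.08 with it). Summed over the list, mesothelium markers were at 116 to 279 TPM at 6 weeks and 34.6 to 197 TPM at 8 weeks, and control mice were at 95.1 to 268 TPM at 6 weeks and 52.6 to 207 TPM at 8 weeks. The median stayed negative under each scaling, between -0.52 and -0.86.

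**Figure D4:**
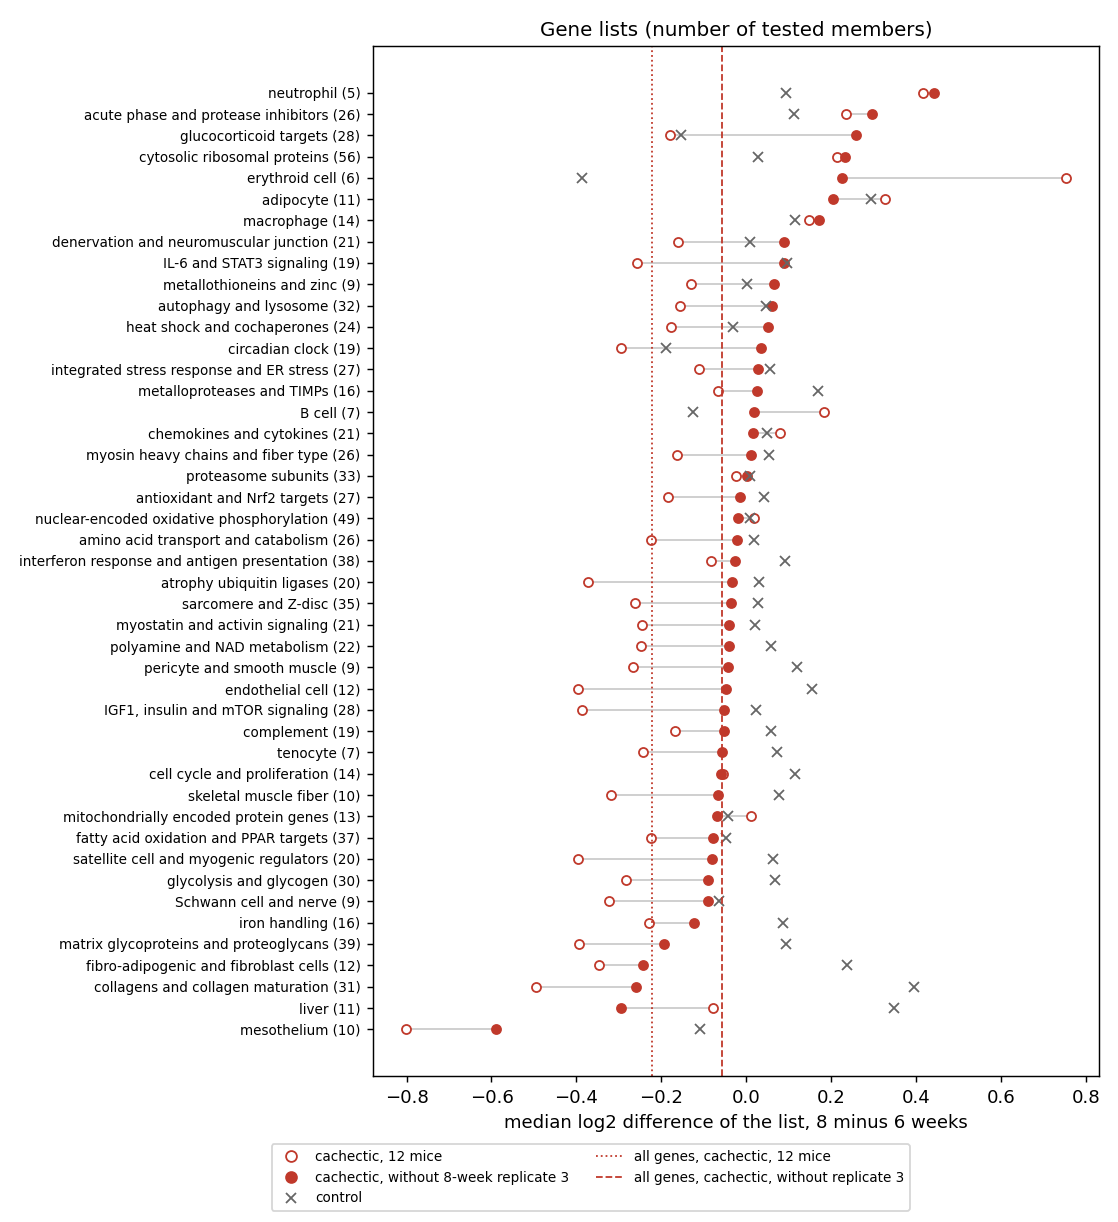
Median log2 difference of 8 minus 6 weeks (x axis) of each gene list with at least 5 tested members, apart from the genes reported earlier (y axis, members in parentheses), in cachectic mice with 12 mice (open circles) and without the 8-week replicate 3 (filled circles) and in control mice (crosses). Dotted and dashed lines mark the medians of all genes, -0.22 and -0.06. Ribosomal proteins are to the right of both lines, and mesothelium and collagens to the left, with either set of mice.

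Cells of the immune system and metabolic genes gave few differences. The signs below can be read against all genes, of which 35% were positive and most negative without replicate 3. Of 14 macrophage markers 12 were positive without replicate 3, with a median of 0.17, and 0 had an unadjusted p under 0.05. Ccl8, a chemokine that attracts monocytes, was at 10.9 to 37.2 TPM at 6 weeks and at 6.13 to 230 TPM at 8 weeks, highest in replicate 2. The 26 acute phase genes and protease inhibitors had a median of 0.30 without replicate 3, with Lcn2 alone at an unadjusted p under 0.05 (difference 0.87, and 0.39 with 12 mice). Of 9 genes of metallothioneins and zinc transport, 3 had one, Mt1, Mt3 and the zinc importer Slc39a14. Hmox1, which breaks down heme, differed by 0.90 and Hspb1, a small heat shock protein of muscle, by 0.75, and with 12 mice by 0.60 and 0.38. Of the 37 genes of fatty acid oxidation, 27 were negative with 11 mice, and Ucp3, a mitochondrial uncoupling protein, differed by -0.83, and by -1.02 with 12 mice. Of the 19 circadian clock genes 12 were positive and 7 negative, and of the 7 tested members of the B cell list 5 were positive. The 11 liver markers had a median of -0.30 and the 6 tested erythroid markers of 0.22, with Hba-a2 at 11030 TPM in replicate 3 and at 34.6 to 1946 TPM in the other 11 mice. Of 7 mouse melanocyte markers, 6 stayed under 1 TPM in all mice of both groups. The reads were aligned to the mouse genome, and these values do not measure RNA of the human tumor.

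Mice at 8 weeks differed more among themselves than mice at 6 weeks. The SD of log2(TPM + 1) was larger at 8 weeks in 68.8% of genes without replicate 3 and in 88.7% with it. The median SD over genes was 0.19 at 6 weeks, 0.25 at 8 weeks without replicate 3 and 0.52 with it. Between the highest and lowest mouse, Trim63 differed by 10.2-fold at 8 weeks without replicate 3 and by 3.14-fold at 6 weeks. Nmrk2 differed by 10.6-fold and 2.14-fold, and Ky by 15.8-fold and 3.25-fold. Romo1, by contrast, differed by 1.22-fold at 8 weeks and 1.73-fold at 6 weeks. Trim63, Nmrk2 and Ky are shown for their extreme values at 8 weeks and Romo1 for its small p. Their folds are examples and do not measure the spread of genes in general. Such a ratio also tends to be larger in the larger group of mice. Leaving out replicate 3, an 8-week mouse was outside the range of the 6-week mice in 22.7% of genes in replicate 7 and in up to 55.8% in replicate 2. In replicates 1 and 2 most of these genes were below the range, 5972 and 6131 of them, and in replicate 6 most were above it, 4058.

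Time alone was followed in the other mice. In control mice limma called 0 genes (0%) between 8 and 6 weeks, with 87 genes (0.641%) at an unadjusted p under 0.05, and Dunn's test called 0, with 218. In mice with the non-cachectic melanoma limma called 0 (0%), with 83 (0.611%) at an unadjusted p under 0.05, and Dunn's test called 0, with 174. These shares are below what unchanged genes alone would give at this threshold, with a spread pooled over all 12 conditions. The 0 calls here and in the interactions below therefore do not show that time alone changed nothing. The difference between cachectic and control mice in the change from 6 to 8 weeks was tested as an interaction, and limma called 0 genes (0%) with 12 mice and 0 with 11, and 580 (4.27%) and 300 (2.21%) were under 0.05 before adjustment. Against the non-cachectic melanoma limma called 0 genes (0%) with 12 mice, with 345 (2.54%) at an unadjusted p under 0.05, and 1 gene (0.00736%) with 11 mice, with 273 (2.01%). Dunn's test has no form for the interaction. That gene was Atp8a2, which went from a median of 1.31 to 2.15 TPM in cachectic mice and from 0.90 to 0.51 TPM in mice with the non-cachectic melanoma (difference 0.72; limma adjusted p = 0.0296). For the other genes called as higher or lower at 8 weeks, no difference in this change between cachectic mice and mice with the non-cachectic melanoma or control mice passed the test.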

How the data were processed

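RNA-seq was made from whole diaphragm, 1 library per mouse, and the deposited table holds 1 TPM value per gene and mouse for 47643 genes. Per the labels and methods, the authors aligned the reads to GRCm38 (mm10) in CLC Genomics Workbench and computed TPM there. The labels name a stranded TruSeq mRNA kit and the methods another TruSeq kit. Which annotation release was used, whether strand was counted and how reads with several matches were placed are not given in the sources used here, and depth cannot be recovered from TPM.

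Groups came from the labels. With log2(TPM + 1) and genes of at least 1 TPM in at least 5 of 62 libraries (13578), limma 3.58.1 (R 4.3.3, intensity trend) was fitted to the means of 12 conditions over all 62 libraries, or 61 without the 8-week cachectic replicate 3, with Benjamini-Hochberg adjustment over all genes. Dunn's test, other scalings, filters and pseudocounts, array weights, a replicate block, single mice left out, and an adjustment for length and GC content (a spline with 4 degrees of freedom, chosen after seeing the data) were alternatives. Transcript lengths from GENCODE M21 matched 99.3% of genes tested. Copies were searched with BLAST 2.17.0 (at least 95% identity over 200 bases). The fit was tested on simulated data. The rule for named genes took the 12 called genes with the largest difference in each direction, filled up by smallest p, up to 4 members a list, and 19 genes reported earlier. Further genes, among them the called Pam16, Timm10b, Hint2, Edf1 and Atp8a2, and Trim63, Fbxo32, Col1a1, Col3a1, Myh4, Ppp1cc and some members of the oxidative phosphorylation and matrix lists, were chosen after their values were seen. The members and lists were chosen with earlier results of these data known. Values of genes with near-identical copies, or with overlapping or antisense neighbours, are uncertain. One gene is not reported here.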

Additional observations from a re-analysis of the deposited data

Results flagged for a closer look

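Values of 88 groups of mice were checked for 1 mouse far from the others of its group, and 18 stood out by Dixon's test, which chance alone does in about 1 in 20 groups.

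Of these, 11 were the 8-week cachectic replicate 3. It was the lowest of 7 mice for Edf1 at 102.9 TPM, Timm10b at 7.062 TPM, Gm5617 at 10.15 TPM and Atp8a2 at 1.008 TPM, all genes that rose without it. It was also the lowest for Serpina3n at 18.39 TPM, Mt2 at 20.86 TPM, and the glucocorticoid targets Klf15 at 10.45 TPM and Zbtb16, a zinc finger repressor, at 0.6298 TPM. In this library 15263 genes were above 0, mitochondrially encoded genes held 57.101% of TPM, and the slope of level on transcript length was -0.55645.

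At 6 weeks replicate 5 stood apart with the lowest Toporsos at 6.026 TPM and Timm10b at 5.935 TPM, a length slope of -0.074388 and a mean log2 level of liver markers of 7.6865. Replicate 1 had the highest Serpina3n at 590.4 TPM and the lowest Ky at 9.008 TPM, and replicate 2 the highest Nmrk2 at 34.45 TPM.

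Between tumors, the change of Atp8a2 from 6 to 8 weeks differed by 0.717 on the log2 scale between cachectic mice without replicate 3 and mice with the non-cachectic melanoma (limma adjusted p = 0.0296 as an interaction). With 12 mice limma called 0 genes in this interaction. Atp8a2 was higher in the 6 cachectic mice at 8 weeks other than replicate 3 than in all 5 at 6 weeks. Replicate 3 was at 1.008 TPM. The gene was called from these same mice, so that this lack of overlap is no added support.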

How the results depend on the processing

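Depth is unknown, so that changes of low genes cannot be told from counting error, and the log2(TPM + 1) scale shrinks them. With 12 mice, where 0 genes were higher and 0 lower, calls appeared with no filter on low values (2 lower), with quantile normalization (15 higher, 1 lower) and with array quality weights (28 higher, 8 lower), and leaving out 1 mouse gave 0 to 19 higher and 0 to 1 lower, the most without the 8-week replicate 3. The fit of the weights stopped before its convergence tolerance, and it also called 367 genes in control mice, 72 for the difference from control and 2 for the difference from the non-cachectic melanoma. No filter on low values gave 3 genes in mice with the non-cachectic melanoma and 1 for the difference from them, for which leaving out 1 mouse gave 0 to 1. Without replicate 3, where 19 genes were higher and 1 lower, 0 and 0 were called when only the groups compared were fitted, without mitochondrially encoded genes, by Dunn's test, and after adjustment for length and GC content. A pseudocount of 0.1 left 12 and 0, median-ratio scaling 1 and 0, and quantile normalization 1 and 0. No filter gave 5 lower and array weights 7 lower, and leaving out 1 more mouse gave 0 to 40 higher and 0 to 3 lower. The cause of these changes was not tested.

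With 12 mice, the share of higher genes among those at an unadjusted p under 0.05 was 11.5%, against 55.8% with median-ratio scaling, 51.5% with quantile normalization, 8.34% without mitochondrially encoded genes and 55.4% after adjustment for length and GC content. Without replicate 3 it was 51.8%, against 60.4%, 56.8%, 24.4% and 59.1%. Median-ratio scaling moved the median of all genes from -0.22 to -0.01 with 12 mice. The median changed its sign under some scaling in 27 of 48 lists with 12 mice and in 22 with 11. Of 1224 pairs of 51 named genes and 24 alternatives to the fit with 12 mice, which itself had no call to lose, 40 passed the threshold and 50 changed sign without passing.

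The replicate numbers were tried as a replicate block, which gave 9 higher and 0 lower genes without replicate 3 and 0 calls with 12 mice. Over 5 same-numbered pairs the deviations from the group means correlated between -0.43 and 0.31, over 0.1 in 2, and the numbers were not taken as pairing the mice.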
